A study of Saccharomyces cerevisiae with 24 samples.

Results

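The 7 genes of trehalose synthesis and breakdown were followed in the budding yeast *Saccharomyces cerevisiae*. In 2 strains the decapping enzyme Dcp2 (gene DCP2) or the decapping activator Lsm1 (gene LSM1) was targeted by an inducible degron for 60 min. The genes were taken by their systematic names from the deposited table of read counts: TPS1 (YBR126C), TPS2 (YDR074W), TPS3 (YMR261C), TSL1 (YML100W), NTH1 (YDR001C), NTH2 (YBR001C) and ATH1 (YPR026W). All 7 of the 7 rows were found among 12289 features, of which 5802 were protein-coding, and all 7 passed the filter on low counts. The rule that names them uses no measured value, but the genes were chosen with earlier results of these data known.

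Poly(A) RNA was sequenced with the strand kept in 24 libraries, 4 in each of 6 groups. An inducible degron is a tag by which added compounds bring about the destruction of the tagged protein. The groups were dcp2-ideg T60, dcp2-ideg T0, lsm1-ideg T60, lsm1-ideg T0, wt T60 and wt T0, where T60 cultures had received 100 µM IAA (auxin) with 1 µM beta-oestradiol for 60 min at 30 °C and T0 cultures had not. The wt strain, labelled WT, received the same additions, so its change is the one against which both degron strains were set. All cultures grew in rich YPD medium. The labels give neither the parts of the degron, nor the number of clones behind a strain, nor whether replicates came from separate cultures, and the p-values therefore measure only the spread between these libraries, which may be technical. The proteins, and trehalose itself, were not analysed here.

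Trehalose is a disaccharide of glucose that yeast builds up as a reserve and as a protectant of proteins and membranes under heat, desiccation and starvation. The synthase subunit Tps1 joins glucose 6-phosphate and UDP-glucose into trehalose 6-phosphate, the phosphatase subunit Tps2 removes the phosphate, and Tps3 and Tsl1 are related large subunits that hold and regulate the complex. The neutral trehalases Nth1 and Nth2 split trehalose in the cytoplasm, Nth1 being the main one and switched on by protein kinase A with a 14-3-3 protein, and the acid trehalase Ath1 acts on trehalose outside the cytoplasm. Genes of the pathway are classical targets of the stress transcription factors Msn2 and Msn4, which bind the stress response element AGGGG.

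The sequences before the start codons are shown because the members differ in how many of these elements they hold. AGGGG and its reverse complement CCCCT were searched on both strands of the 600 bases before each start codon in the R64 reference genome from RefSeq, the assembly that sacCer3 stands for. TPS1 held 6 matches, TPS2 and TSL1 5 each, NTH1 3, TPS3 2, ATH1 1 and NTH2 0. Over all 5999 yeast promoters of that length, 39.67% held at least 1 match, 10.72% at least 2, 2.434% at least 3 and 0.3334% at least 5. In a shorter window, 250 bases before to 50 after the start codon, 4 of the 7 members and 21.61% of 6001 promoters held at least 1. The stretches below run 5′ to 3′ on the gene's strand, with the matches in capitals. They cover the matches that lie before the counted feature of each gene, with 12 bases on either side.
TPS1 chrII:490615-490876 (minus strand): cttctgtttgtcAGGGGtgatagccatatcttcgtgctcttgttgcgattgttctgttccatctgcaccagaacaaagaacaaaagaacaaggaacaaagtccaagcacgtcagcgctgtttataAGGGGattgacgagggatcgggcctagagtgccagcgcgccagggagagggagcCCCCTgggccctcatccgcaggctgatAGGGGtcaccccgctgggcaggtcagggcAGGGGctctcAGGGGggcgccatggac
TPS2 chrIV:593358-593601 (plus strand): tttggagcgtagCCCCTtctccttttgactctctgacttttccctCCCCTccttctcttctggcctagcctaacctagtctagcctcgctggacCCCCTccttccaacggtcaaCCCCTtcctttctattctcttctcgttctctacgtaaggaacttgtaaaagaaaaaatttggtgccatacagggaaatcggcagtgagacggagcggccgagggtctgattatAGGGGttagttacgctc
TSL1 chrXIII:70234-70475 (plus strand): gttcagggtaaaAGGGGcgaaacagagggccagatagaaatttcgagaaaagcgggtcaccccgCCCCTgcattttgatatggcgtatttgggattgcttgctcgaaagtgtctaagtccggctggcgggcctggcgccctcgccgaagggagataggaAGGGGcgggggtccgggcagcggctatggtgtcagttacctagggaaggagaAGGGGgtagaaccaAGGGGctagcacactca
TPS3 chrXIII:793570-793616 (minus strand): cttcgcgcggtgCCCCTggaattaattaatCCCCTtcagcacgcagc
NTH1 chrIV:452801-452837 (minus strand): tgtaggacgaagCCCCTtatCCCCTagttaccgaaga
The third NTH1 match and the ATH1 match lay inside the counted features of those genes and are not printed. The TPS1 stretch lies within the cryptic transcript CUT_GIM_0150 of the same strand. The TSL1 stretch lies within the counted feature of the small gene YML100W-A on the same strand. On the opposite strand, the TPS2 stretch shares 176, 141 and 57 bases with the non-coding features XUT_4R-263, SUT471 and CUT_GIM_1184. The TPS1 stretch shares 27 bases with the dubious reading frame YBR126W-A on the opposite strand. In TPS1 and TSL1 most matches read AGGGG on the gene's strand, while in TPS2, TPS3 and NTH1 most read CCCCT. A match is a run of letters and not a measured binding site, and none was tested against the changes given below.

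**Figure D1:**
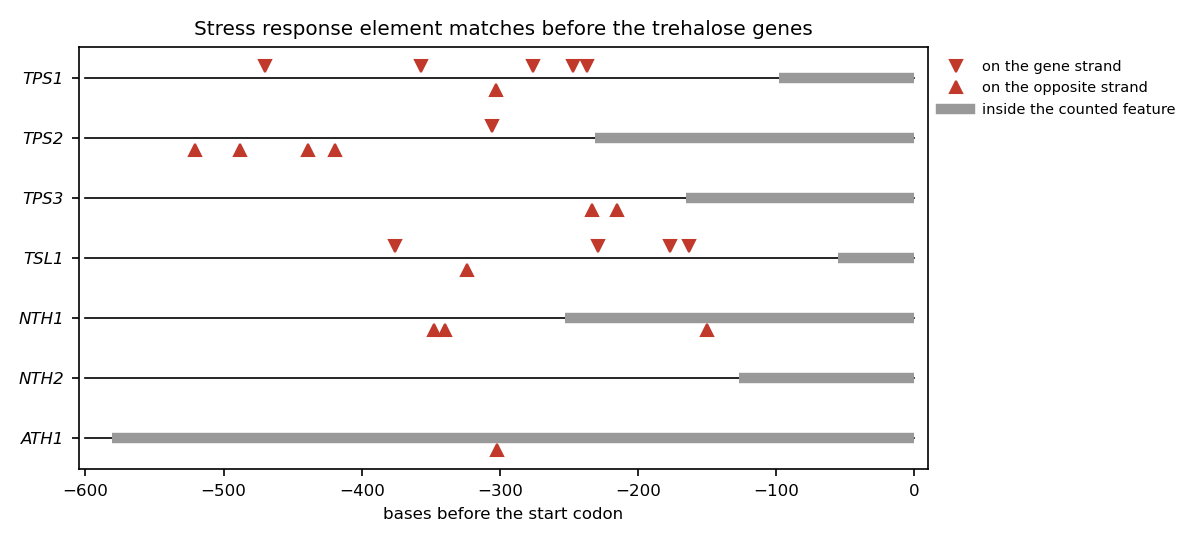
Matches to the stress response element in the 600 bases before each start codon, at their distance from the start codon in bases. Triangles pointing down mark the gene's strand and triangles pointing up the opposite strand, and grey bars mark the part inside the counted feature. TPS1, TPS2 and TSL1 hold 6, 5 and 5 matches, all of them upstream of the feature, and NTH2 holds 0.

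Libraries held 41.8 M to 83.9 M counts (M for mega, median 54.4 M), and the 7 members together took 0.0306% to 0.0895% of a library. DCP2 mRNA lay between 49.5 and 77.6 CPM (counts scaled to a common library size by the trimmed mean of M-values, TMM) in dcp2-ideg T60, against 83.3 to 146 CPM in dcp2-ideg T0. LSM1 mRNA lay between 84.2 and 92.4 CPM in lsm1-ideg T60 and between 99.0 and 103 CPM in lsm1-ideg T0, under its range of 147 to 162 CPM in wt T0. Some libraries stood apart from the others of their group by their correlation over protein-coding features. The median r with group mates was 0.969 for dcp2-ideg T60 replicate 4, 0.956 for dcp2-ideg T0 replicate 4 and 0.979 for wt T60 replicate 3. Counts given below with these 3 libraries set aside come from an alternative added after the data had been seen.

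The trehalose genes spanned a wide range of levels. Per kilobase of feature and averaged over the 24 libraries, TPS1 was the most abundant at 71.9 CPM per kb, above 73.9% of protein-coding features. NTH1 followed at 36.1, TPS3 at 28.1, TPS2 at 26.9, NTH2 at 13.5, TSL1 at 9.48 and ATH1 at 5.25 CPM per kb, the last above 8.08% of protein-coding features. The neutral trehalase gene NTH1 was therefore above NTH2 per length, and the regulatory subunit gene TPS3 above TSL1. The 4 synthesis genes summed to 166 ± 32.1 CPM per kb in dcp2-ideg T60, 122 ± 22.6 in dcp2-ideg T0, 117 ± 8.58 in lsm1-ideg T60, 132 ± 10.7 in lsm1-ideg T0, 134 ± 5.51 in wt T60 and 147 ± 28.0 in wt T0 (SD, n = 4 each). The 3 breakdown genes summed to 72.2 ± 8.34 CPM per kb in dcp2-ideg T60, 51.9 ± 7.28 in dcp2-ideg T0, 47.2 ± 3.23 in lsm1-ideg T60, 50.7 ± 2.47 in lsm1-ideg T0, 52.2 ± 3.08 in wt T60 and 54.5 ± 3.08 in wt T0. The ratio of the synthesis sum to the breakdown sum lay between 2.08 and 2.49 in dcp2-ideg T60 and between 1.99 and 2.64 in dcp2-ideg T0, so that these ranges overlapped.

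The first comparison asked which trehalose genes changed more in dcp2-ideg than they did in wt. TSL1, TPS1, NTH1 and ATH1 rose, so that genes of both synthesis and breakdown were among them, and 0 of the 7 fell. The largest rise was that of TSL1, 2.51-fold. TPS2, TPS3 and NTH2 did not pass the test. With protein-coding features alone TPS2 (adjusted p = 0.0444, edgeR) and NTH2 (0.00868) were called as well, 6 of 7 members higher beside 21% of those features, and with total counts all 7 were, beside 37.9% of all features. NTH2 was also called in a fit that blocked on the numbered pairs of each strain (0.0415), where 5 of 7 members stood beside 23.3% of all features called higher. Of all 11776 features tested 34.4% were called in this comparison, 18.5% higher and 15.9% lower, so 4 of 7 higher stands beside 18.5%. The median log2 change of the 7 members was 0.57, and it was 0.073 over all features tested and -0.18 over the protein-coding ones. Every count of calls is from edgeR's quasi-likelihood test with Benjamini-Hochberg adjustment over all features, at an adjusted p under 0.05. Scaling by total counts in place of TMM moved the median of all features in this comparison to 0.57 and the split of calls to 4461 higher and 490 lower, against 2176 higher and 1872 lower with TMM. Relative to these medians TSL1 changed by 1.25 with total counts and by 1.26 with TMM, and TPS1 by 0.60 with total counts and by 0.61 with TMM.

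Among the synthesis genes, TSL1, which encodes a regulatory subunit of the synthase complex (chromosome XIII, 70569 to 74025, plus strand), differed most. It had 80.0, 51.4, 74.2 and 44.1 CPM in dcp2-ideg T60 (replicates 1 to 4), against 36.5, 18.7, 30.9 and 10.2 CPM in dcp2-ideg T0. It had 35.6, 23.6, 29.3 and 25.1 CPM in lsm1-ideg T60, against 31.0, 24.3, 30.6 and 22.4 CPM in lsm1-ideg T0. It had 35.0, 22.7, 30.1 and 22.9 CPM in wt T60, against 39.0, 19.8, 23.3 and 25.6 CPM in wt T0. Each dcp2-ideg T60 library was above each of the other 20 libraries, and those 5 groups overlapped one another. The log2 change beyond wt was 1.33 ± 0.39 (SE, adjusted p = 0.01, edgeR). Within dcp2-ideg the change was 1.37 ± 0.28 (adjusted p = 0.000223), and the 4 pairs of equal replicate number differed by 1.13, 1.46, 1.26 and 2.11 on the log2 CPM scale. The pair that differed by 2.11 was replicate 4, whose T0 library had the lowest TSL1 level of all 24. With the 3 libraries that stood apart set aside the change beyond wt was 1.26 (adjusted p = 0.00314).

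TPS3 encodes the related subunit (chromosome XIII, 790134 to 793534, minus strand). It had 106, 105, 106 and 64.1 CPM in dcp2-ideg T60, against 111, 91.5, 103 and 50.3 CPM in dcp2-ideg T0. In lsm1-ideg it ranged from 80.7 to 91.3 CPM at T60, against 94.8 to 110 CPM at T0, and in wt from 92.5 to 103 CPM at T60, against 78.7 to 123 CPM at T0. The dcp2-ideg T60 and T0 ranges overlapped, and replicate 4 was the lowest library at both times. The change beyond wt was 0.16 ± 0.25 (adjusted p = 0.672, edgeR) with a 95% interval of -0.37 to 0.68. It turned to -0.059 without dcp2-ideg T0 replicate 4. The ratio of TSL1 to TPS3 per length was 0.648 ± 0.115 in dcp2-ideg T60, 0.255 ± 0.0631 in dcp2-ideg T0, 0.319 ± 0.0568 in lsm1-ideg T60, 0.256 ± 0.0337 in lsm1-ideg T0, 0.283 ± 0.0611 in wt T60 and 0.263 ± 0.0596 in wt T0 (SD, n = 4 each). Its lowest value in dcp2-ideg T60, 0.482, was above its highest elsewhere, 0.399 in lsm1-ideg T60.

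TPS1, the gene of the synthase subunit (chromosome II, 488786 to 490490, minus strand), had 183, 115, 184 and 134 CPM in dcp2-ideg T60, against 124, 97.2, 114 and 99.1 CPM in dcp2-ideg T0. It had 119, 115, 119 and 127 CPM in wt T60, against 141, 108, 127 and 167 CPM in wt T0. It ranged from 92.7 to 113 CPM in lsm1-ideg T60, against 97.6 to 127 CPM in lsm1-ideg T0. Replicates 1 and 3 of dcp2-ideg T60 were the highest of all libraries, while replicate 2 lay inside the range of dcp2-ideg T0. The change beyond wt was 0.68 ± 0.20 (SE, adjusted p = 0.00958, edgeR), of which 0.50 ± 0.14 was the change within dcp2-ideg (adjusted p = 0.00451) and -0.18 ± 0.14 that within wt (adjusted p = 0.995). The feature shares 138 bases with the cryptic transcript CUT_GIM_0150 on the same strand, whose mean count was 11.1% of that of TPS1, so the TPS1 value is uncertain by the reads of that overlap.

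TPS2, the gene of the phosphatase subunit (chromosome IV, 593662 to 596774, plus strand), had 97.9, 89.4, 103 and 75.9 CPM in dcp2-ideg T60, against 89.5, 82.1, 90.5 and 55.8 CPM in dcp2-ideg T0. It ranged from 79.8 to 99.4 CPM in wt T60, against 71.3 to 118 CPM in wt T0. The groups overlapped, although each dcp2-ideg T60 library was above the T0 library of its number, by 0.12 to 0.44 on the log2 CPM scale. The change beyond wt was 0.32 ± 0.21 (adjusted p = 0.264, edgeR), with a 95% interval of -0.12 to 0.76. TPS2 was lowest on average in lsm1-ideg T60, at 67.8 ± 8.81 CPM, against 82.9 ± 7.23 CPM in lsm1-ideg T0 (SD, n = 4), and these libraries overlapped too.

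Among the breakdown genes, NTH1, which encodes the main neutral trehalase (chromosome IV, 450152 to 452728, minus strand), had 136, 124, 139 and 104 CPM in dcp2-ideg T60, against 99.5, 105, 88.9 and 63.5 CPM in dcp2-ideg T0. It had 92.1, 102, 84.2 and 78.2 CPM in wt T60, against 99.0, 90.3, 92.4 and 94.3 CPM in wt T0. It had 70.5, 88.7, 75.2 and 70.9 CPM in lsm1-ideg T60, against 83.4, 97.9, 70.4 and 80.8 CPM in lsm1-ideg T0. The dcp2-ideg T60 libraries were above all libraries of wt and lsm1-ideg, and only replicate 4 fell inside the dcp2-ideg T0 range, by less than 2 CPM. The change beyond wt was 0.57 ± 0.19 (SE, adjusted p = 0.0227, edgeR). Within dcp2-ideg it was 0.49 ± 0.14 (adjusted p = 0.00359). The call beyond wt was lost without dcp2-ideg T60 replicate 1 (adjusted p = 0.0583), dcp2-ideg T60 replicate 3 (0.0627) or wt T60 replicate 4 (0.0651), and the number of members called was then 2 in each of these fits.

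ATH1, which encodes the acid trehalase and had the lowest level per length of the 7 (chromosome XVI, 614798 to 619102, plus strand), had 34.1, 31.3, 34.6 and 22.8 CPM in dcp2-ideg T60, against 22.8, 18.9, 18.97 and 12.2 CPM in dcp2-ideg T0. It had 20.3, 16.8, 31.8 and 20.8 CPM in wt T60, against 26.9, 18.4, 19.3 and 25.2 CPM in wt T0. It had 21.3, 21.04, 20.4 and 21.4 CPM in lsm1-ideg T60, against 19.7, 16.6, 21.3 and 25.4 CPM in lsm1-ideg T0. The dcp2-ideg T60 and T0 libraries did not overlap, but only just, and 4 other libraries lay inside the dcp2-ideg T60 range, namely replicate 3 of wt T60, replicates 1 and 4 of wt T0 and replicate 4 of lsm1-ideg T0. The change beyond wt was 0.75 ± 0.27 (adjusted p = 0.0334, edgeR), and 0.94 with the 3 libraries that stood apart set aside (adjusted p = 0.000493). This call was the least steady of the 4, since it passed in 7 of 16 fits that left out 1 library, with adjusted p from 0.00512 to 0.0838. On the opposite strand 3 features overlap ATH1, with mean counts of 1.52% to 2.81% of its own.

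NTH2, the gene of the second neutral trehalase (chromosome II, 238794 to 241410, minus strand), had 43.3, 34.1, 49.1 and 44.8 CPM in dcp2-ideg T60, against 32.0, 34.6, 32.5 and 37.7 CPM in dcp2-ideg T0. It ranged from 28.6 to 34.6 CPM in wt T60, against 29.6 to 36.5 CPM in wt T0. Replicates 1, 3 and 4 of dcp2-ideg T60 were above all dcp2-ideg T0 libraries and replicate 2 was within their range. The change within dcp2-ideg was 0.32 ± 0.12 (adjusted p = 0.0272, edgeR), but the change beyond wt was 0.38 ± 0.17 (adjusted p = 0.09). The call within dcp2-ideg was lost in 4 of 8 fits that left out 1 library, with adjusted p up to 0.0958 without dcp2-ideg T60 replicate 3, and with DESeq2 (0.0626). SUT008 and XUT_2F-78 overlap NTH2 on the opposite strand, with mean counts of 6.91% and 6.99% of its own. NTH2 was the member with 0 matches to the stress response element in the 600 bases. TPS2 with 5 matches and TPS3 with 2 were not called beyond wt either, while ATH1 with 1 was. A link between matches and changes was not tested. Within dcp2-ideg 5 of the 7 members were thus called, all higher (TPS1, TSL1, NTH1, NTH2 and ATH1), beside 51.8% of all features called in that comparison and 27.9% called higher. TSL1 and ATH1 were the 2 members whose dcp2-ideg T60 and T0 libraries did not overlap, beside 41.7% of all features.

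The order of the 6 group means was led by dcp2-ideg T60 for TPS1, TSL1, NTH1, NTH2 and ATH1. Only for TSL1 and NTH1 did the libraries of dcp2-ideg T60 stay clear of the group next in order, which was lsm1-ideg T60 for TSL1 and wt T0 for NTH1. All other neighbours in the order overlapped for all 7 genes. For TPS2 the highest mean was that of wt T0 and for TPS3 that of lsm1-ideg T0.

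The second comparison asked whether the trehalose genes changed in lsm1-ideg beyond wt. None of the 7 was called, with 0 at an unadjusted p under 0.05 in edgeR and 0 called by DESeq2, beside 0.212% of all features called in edgeR. Log2 changes lay between -0.18 (TPS3) and 0.049 (TPS1), with adjusted p from 0.913 to 0.994. The 95% intervals reached upward to 0.26 for TPS2, 0.30 for NTH2, 0.34 for TPS3, 0.35 for NTH1, 0.46 for TPS1, 0.58 for ATH1 and 0.83 for TSL1. The upper bounds of TPS1, NTH1, TSL1 and ATH1 were thus all below the estimated change of the same gene in dcp2-ideg. The dcp2-ideg intervals of these genes started lower, at 0.27, 0.18, 0.52 and 0.19 in that order, so the intervals overlapped. Both estimates also share the wt libraries.

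The third comparison set the change of dcp2-ideg directly against that of lsm1-ideg. TSL1, NTH1, TPS1 and ATH1 were higher in dcp2-ideg, 4 of 7, beside 28.5% of all features called and 15.2% called higher. The log2 differences were 1.30 ± 0.39 for TSL1 (adjusted p = 0.0142), 0.62 ± 0.19 for NTH1 (0.0171), 0.63 ± 0.20 for TPS1 (0.0191) and 0.73 ± 0.27 for ATH1 (0.0444), all with edgeR. TPS2, NTH2 and TPS3 were at 0.50 ± 0.21 (adjusted p = 0.0858), 0.43 ± 0.17 (0.0644) and 0.34 ± 0.25 (0.343). When the fit blocked on the numbered pairs of each strain all 3 were called (TPS2 0.0121, NTH2 0.0237, TPS3 0.0327), which made 7 of 7 beside 39% of all features called and 19.4% called higher. In the numbered pairs TPS2 was higher at T60 in 4 of 4 of dcp2-ideg and lower in 4 of 4 of lsm1-ideg, and TPS3 was higher in 3 of 4 of dcp2-ideg and lower in 4 of 4 of lsm1-ideg. With protein-coding features alone TPS2 (0.0176) and NTH2 (0.0121) were called, 6 of 7 beside 16.8% of those features called higher. This comparison shares the dcp2-ideg libraries with the first, so the 2 are not independent. ATH1 lost its call in 13 of the 16 fits that left out 1 library, and TPS1 in 2 of them, without dcp2-ideg T60 replicate 1 (adjusted p = 0.0545) and without dcp2-ideg T60 replicate 3 (0.0555). NTH1 lost its call without dcp2-ideg T60 replicate 3 (0.0521) and without lsm1-ideg T0 replicate 2 (0.0611), so that the number called was 1 without dcp2-ideg T60 replicate 3 and 2 without dcp2-ideg T60 replicate 1.

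**Figure D2:**
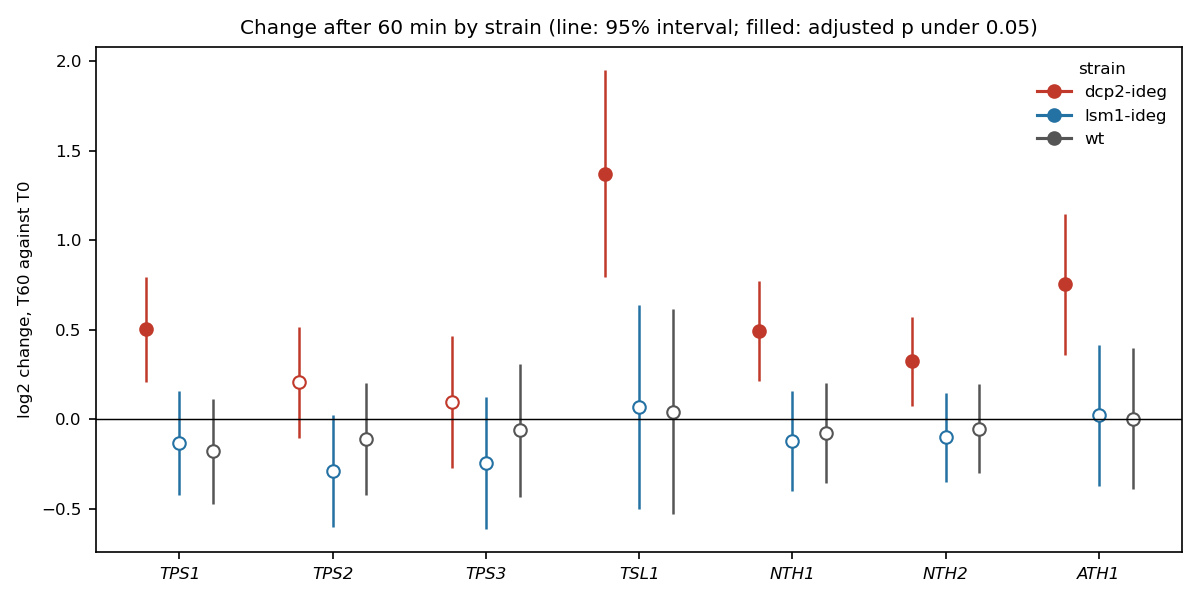
Log2 change of each trehalose gene at T60 against T0 within dcp2-ideg, lsm1-ideg and wt. Points are edgeR estimates, lines are 95% intervals, and filled points have an adjusted p under 0.05. Of the 7 genes 5 are filled in dcp2-ideg, led by TSL1 at 1.37, and none in lsm1-ideg or wt.

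The remaining comparisons gave 0 called members each. Within lsm1-ideg changes lay between -0.29 (TPS2, adjusted p = 0.428) and 0.069 (TSL1), with 0 at an unadjusted p under 0.05 and 0 by DESeq2, beside 1.85% of all features called in edgeR. Within wt they lay between -0.18 (TPS1) and 0.042 (TSL1), with 0 at an unadjusted p under 0.05 and 0 by DESeq2. There edgeR called 0 of the 11776 features (0%), with 388 at an unadjusted p under 0.05 and 0 called by DESeq2. Before the addition, dcp2-ideg T0 against wt T0 gave differences between -0.32 (TPS1, adjusted p = 0.377) and 0.029 (NTH2). There 1 member, TPS1, was at an unadjusted p under 0.05 and 0 were called by DESeq2, beside 0.824% of all features called in edgeR. The lsm1-ideg T0 libraries differed from wt T0 by -0.26 (TPS1, adjusted p = 0.784) to 0.089 (NTH2), with 0 members at an unadjusted p under 0.05 and 0 by DESeq2, beside 0.348% of all features.

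Trehalose shares its substrate UDP-glucose with glycogen, whose enzymes form a list of 7 genes. In dcp2-ideg beyond wt 5 of 7 rose, 0 fell and 2 did not pass, with a median of 1.39, beside 18.5% of all features called higher. The main glycogen synthase gene GSY2 rose by 1.91 ± 0.21 (SE, adjusted p = 2.44e-07), reaching 131 ± 17.6 CPM in dcp2-ideg T60, against 37.4 ± 6.57 CPM in dcp2-ideg T0 (SD, n = 4). The branching enzyme gene GLC3 rose by 1.63 ± 0.29, the glycogen phosphorylase gene GPH1, a breakdown enzyme, by 1.45 ± 0.31, the second synthase gene GSY1 by 1.39 ± 0.22 and the glycogenin gene GLG1 by 1.17 ± 0.22. The debranching enzyme gene GDB1 was at 0.68 ± 0.28 (adjusted p = 0.0597) and the second glycogenin gene GLG2 at 0.12 ± 0.20 (adjusted p = 0.692). Synthesis and breakdown genes were thus both among those that rose, for glycogen as for trehalose. With the 3 libraries that stood apart set aside 6 of 7 were called higher, beside 21.9% of all features.

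The list of 8 genes that supply glucose phosphates and UDP-glucose moved both ways, with 2 higher, 2 lower and 4 not called, and a median of -0.20. Over all features 18.5% were called higher and 15.9% lower. PGM2, the major phosphoglucomutase gene, rose by 1.56 ± 0.27 (adjusted p = 6.89e-05, edgeR), while its paralog PGM1 fell by 0.82 (SE 0.13, adjusted p = 3.25e-05). PGM2 was at 76.6 ± 13.4 CPM in dcp2-ideg T60, against 26.9 ± 8.79 CPM in dcp2-ideg T0 (SD, n = 4). The glucokinase gene GLK1 rose by 0.97 ± 0.26 (adjusted p = 0.00498), and the main hexokinase gene of growth on glucose, HXK2, fell by 1.39 (SE 0.12, adjusted p = 9.93e-09). HXK2 was at 663 ± 38.3 CPM in dcp2-ideg T60, against 1610 ± 83.4 CPM in dcp2-ideg T0. HXK1, the other hexokinase gene, was at 0.98 ± 0.41 (adjusted p = 0.0681), and UGP1, whose enzyme makes UDP-glucose, at -0.28 ± 0.17 (adjusted p = 0.215). The UGP1 direction turned to 0.22 with total counts, where the median of all features was 0.57. In lsm1-ideg beyond wt edgeR called 0 of these 8, with 4 at an unadjusted p under 0.05 and 1 called by DESeq2. Within lsm1-ideg UGP1, PGM1 and HXK2 fell, by 0.54 (adjusted p = 0.0188), 0.41 (0.0199) and 0.36 (0.0246). With total counts in place of TMM the adjusted p of these 3 was 0.0523, 0.0679 and 0.155.

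Of the 8 regulators of the pathway reported here, 2 fell and 6 were not called in dcp2-ideg beyond wt, beside 15.9% of all features called lower. Among protein-coding features 1575 of 5752 were called lower in that comparison. The 14-3-3 genes BMH1 and BMH2 fell by 0.42 (adjusted p = 0.0333, edgeR) and 0.41 (0.048), directions that turned to 0.094 and 0.076 with total counts. That scaling moved the median of all features from 0.073 to 0.57. In 12 of 16 fits that left out 1 library, fewer than these 2 regulators were called lower. The transcription factor genes MSN2 and MSN4 were at -0.17 ± 0.32 (adjusted p = 0.719) and 0.0072 ± 0.19 (0.983). The protein kinase A gene TPK2 was at 0.42 ± 0.19 (adjusted p = 0.0843, edgeR). It was called higher with total counts (0.92, adjusted p = 0.000204) and with protein-coding features alone (0.63, 0.00535), beside 37.9% and 21% of features. Against lsm1-ideg it was called higher (0.66 ± 0.19, adjusted p = 0.00939), 1 of 8 regulators, beside 15.2% of all features. TPK3, BCY1 and RIM15 were at -0.33 (adjusted p = 0.137), -0.26 (0.343) and 0.087 (0.847) beyond wt. The median of the supply list turned to 0.31 with total counts and to 0.0088 with protein-coding features alone, while the glycogen median stayed between 1.34 and 1.91. Relative to the median of all features tested, the supply median was -0.27 with TMM and -0.27 with total counts. The regulator median was -0.29 and -0.30 on that basis. The median of all protein-coding features was -0.25 with either scaling on that basis, so both lists lay near it. With protein-coding features alone, the supply and regulator medians were -0.022 and -0.041 relative to the median of the features tested.

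The 13 stress genes, listed because they carry stress response elements, had 9 higher, 0 lower and 4 not called in dcp2-ideg beyond wt. Their median was 0.73, and 18.5% of all features were called higher. The small heat shock gene HSP12 was at 2.04 ± 0.44 (adjusted p = 0.000768) and the cytosolic catalase gene CTT1 at 1.15 ± 0.21 (0.000123), whereas the disaggregase gene HSP104 was at 0.41 ± 0.26 (0.232). Before the addition HSP12 was already at 50.7 ± 16.3 CPM in dcp2-ideg T0, against 11.7 ± 4.37 CPM in wt T0 (SD, n = 4). Against wt T0, edgeR called 1 stress gene higher in dcp2-ideg T0, beside 0.824% of all features called. In lsm1-ideg T0 it called 2 lower, beside 0.348%. All 13 held a match in the 600 bases, a trait for which they were listed. A match was also held by 6 of the 7 glycogen genes, 7 of the 8 supply genes, 4 of the 8 regulators and 6 of the 7 trehalose genes. Over all 5999 promoters the share was 39.67%. In lsm1-ideg beyond wt edgeR called 0 of the glycogen, regulator and stress genes, with 0, 0 and 1 at an unadjusted p under 0.05 and 0 called by DESeq2 in each list. The 1 stress gene was HSP104, at 0.90 ± 0.26 (adjusted p = 0.194). Within lsm1-ideg HSP104 rose by 0.78 ± 0.18 (adjusted p = 0.0239, edgeR), reaching 265 ± 61.7 CPM in lsm1-ideg T60, against 154 ± 16.7 CPM in lsm1-ideg T0 (SD, n = 4). It was called with each scaling, but 0 stress genes were called without lsm1-ideg T60 replicate 3 or 4 or without lsm1-ideg T0 replicate 2 or 3. The medians of these lists are a description, and no list was tested against other genes.

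**Figure D3:**
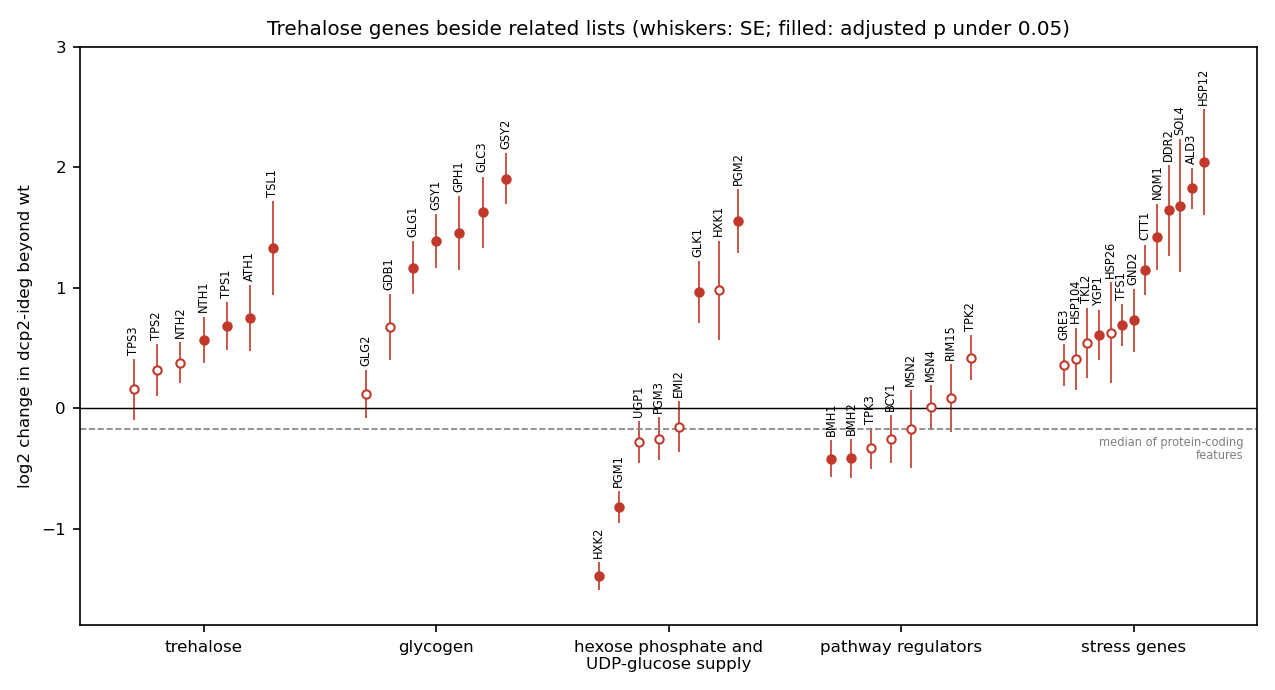
Log2 change in dcp2-ideg beyond that of wt for the trehalose genes and 4 related lists, each point a gene with its SE and filled where the adjusted p is under 0.05. The dashed line is the median of protein-coding features, -0.18. The glycogen genes reach from 0.12 (GLG2) to 1.91 (GSY2), around the position of TSL1 at 1.33, and the supply genes from -1.39 (HXK2) to 1.56 (PGM2).

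Over the 24 libraries, the protein-coding feature whose log2 CPM was most like that of TSL1 was PGM2 (Pearson r = 0.945), followed by SDS24 (0.944) and IBA57 (0.927). ATH1 was most like RIM20 (0.908), KIN1 (0.907) and TOK1 (0.903), and TPS3 most like MNL1 (0.942), PKH2 (0.941) and BRO1 (0.935). The nearest to TPS1 was YME2 (0.873), to TPS2 ROD1 (0.862), to NTH1 FAA2 (0.875) and to NTH2 TFS1 (0.805). Among the members themselves r ran from -0.011 (TPS3 with NTH2) to 0.815 (TSL1 with ATH1). These values describe libraries that share strain, time and scaling, and carry no test.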

How the data were processed

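Deposited counts of reads per feature, whole numbers not normalized by the authors, were used for 24 libraries. The authors used STAR and featureCounts on the build sacCer3, per the submitters' processing notes. Tool versions and the strand setting are not given in the sources used here. Feature lengths and positions of the deposited annotation were used as the authors gave them, and the coding sequences of all 7 members in R64 lay inside their features.

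Samples were grouped by title. Features passing filterByExpr (11776, with 513 left out) were scaled by TMM (factors 0.859 to 1.49) and fitted in 1 edgeR 4.0.16 quasi-likelihood model (R 4.3.3) with 1 mean for each group, which left 18 residual and 6.72 prior degrees of freedom. The TMM factors were 1.29 to 1.49 in dcp2-ideg T60 and 0.859 to 1.01 in the other groups, so the scaling differed between them. The two-sided p-values had Benjamini-Hochberg adjustment across all features tested. Features with an adjusted p under 0.05 were called. The standard error was taken as the log2 change over the root of the F value. There were 8 comparisons. DESeq2 1.42.0, other scalings, other filters, other sets of samples, a replicate block and leaving out each library were the alternatives. On simulated data with 200 features changed in each degron strain, 60 of 100 changes of 2-fold and 11 of 100 of 1.5-fold were recovered in dcp2-ideg beyond wt among 11723 features, and 65 and 9 of 100 in lsm1-ideg beyond wt. Far fewer features changed there than the 4048 called here in dcp2-ideg beyond wt, so these shares cannot tell how many changes that comparison missed.

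All 7 members are named, with the lists of related genes fixed beside them and the 3 features most like each member. A gene of the regulator list is not reported here. The members and lists were chosen with earlier results of these data known. For dcp2-ideg the T60 and T0 libraries of equal number deviated together from their group means (r from 0.38 to 0.86 over protein-coding features, each highest with its own number), so the numbers pair these samples. No call within dcp2-ideg changed with the number as a block. The labels do not say what a number stands for.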

Additional observations from a re-analysis of the deposited data

Results flagged for a closer look

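The level of TPS3 in dcp2-ideg T60 replicate 4, 64.1 CPM, lay far below the other 3 libraries of its group, which were at 105 to 106 CPM. This was 1 of 42 groups of 4 examined, where chance flags about 1 in 20, and the library is one of the 3 that stood apart over all protein-coding features (median r with group mates 0.969).

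The change over 60 min differed between dcp2-ideg and wt, by a test of the difference itself in edgeR, for TSL1 (1.33 on the log2 scale), ATH1 (0.75), TPS1 (0.68) and NTH1 (0.57). It differed between dcp2-ideg and lsm1-ideg for the same 4 genes, by 1.30, 0.73, 0.63 and 0.62 in that order. Both comparisons use the same dcp2-ideg libraries.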

How the results depend on the processing

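The TSL1 rise in dcp2-ideg kept its direction and its call under every alternative run, in all 3 comparisons that hold dcp2-ideg at T60. TPS1 kept its call beyond wt under every alternative run. Across all members, comparisons and alternatives other than leaving out 1 library, 497 values kept their direction and side of the threshold, 27 became called, 8 lost their call and 14 changed sign, none of which was called in either fit. A 1.5-fold change was mostly missed in simulated data.

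With total counts 7 of the 7 members were called in dcp2-ideg beyond wt, beside 42% of all features, and 7 against lsm1-ideg, beside 34.8%. With protein-coding features alone 6 were called in each, beside 38.6% and 30.9% of those features. With only the groups of a comparison fitted, 2 were called in dcp2-ideg beyond wt, beside 30% of features (NTH1 at adjusted p = 0.0533 and ATH1 at 0.0722 were lost, edgeR), 3 within dcp2-ideg (TPS1 at 0.0556 and NTH2 at 0.156 were lost) and 1 within lsm1-ideg (TPS3, -0.24, adjusted p = 0.0441). The NTH2 call within dcp2-ideg was also lost with RLE scaling (0.0623) and DESeq2 (0.0626), and the ATH1 call against lsm1-ideg with RLE scaling (0.0605) and no filter (0.0517). The cause was not tested.

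With the number as a replicate block over all strains, NTH2 was also called beyond wt (0.36, adjusted p = 0.041) and against lsm1-ideg (0.42, adjusted p = 0.0243), which made 5 of 7 in each, beside 36.9% and 31.3% of all features. With a block within each strain, chosen after seeing the data, 5 of 7 were called beyond wt and 7 against lsm1-ideg, beside 44.5% and 39%. Of 8 pairs of equal number across strains, 2 had r over 0.1 and 3 were most like their own number. Of the T60 and T0 pairs within lsm1-ideg 3 of 4 had r over 0.1 and 4 were most like their own number, and within wt 2 and 3 of 4. The block changed no other call. With the 3 libraries that stood apart set aside, 5 of 7 were called beyond wt, 6 against lsm1-ideg and 5 within dcp2-ideg, beside 41.8%, 36.4% and 55.4% of all features.

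Leaving out 1 library gave 2 to 4 calls beyond wt, 1 to 5 against lsm1-ideg, 4 to 5 within dcp2-ideg and 0 in the other comparisons. Without dcp2-ideg T60 replicate 1 the calls beyond wt and against lsm1-ideg were 2 and 2, without dcp2-ideg T60 replicate 3 they were 2 and 1, and without wt T60 replicate 4 there were 2 beyond wt.

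In lsm1-ideg beyond wt NTH1 and NTH2 turned to 0.0066 and 0.0039 with total counts and to 0.0097 and 0.0089 with protein-coding features alone. In lsm1-ideg T0 against wt T0, TSL1 turned to -0.0085 with protein-coding features alone and to -0.0024 with at least 10 CPM in 4 libraries. Within wt, ATH1 turned to -0.010 with the replicate block, to -0.021 with the block within strain and to -0.21 with the 3 libraries set aside, where TSL1 turned to -0.00071. Those 3 set aside, dcp2-ideg T0 against wt T0 gave 0.019 for TPS3, 0.096 for TSL1, 0.058 for NTH1 and -0.021 for NTH2.

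Leaving out 1 library, these changes crossed 0. Beyond wt in dcp2-ideg TPS3 ran from -0.059 to 0.31, and within dcp2-ideg from -0.12 to 0.24, both lowest without dcp2-ideg T0 replicate 4. In dcp2-ideg T0 against wt T0, TPS3 ran from -0.30 to 0.022, TSL1 from -0.43 to 0.095, NTH1 from -0.18 to 0.059 and NTH2 from -0.039 to 0.047. Beyond wt in lsm1-ideg, TPS1 ran from -0.048 to 0.15, TSL1 from -0.21 to 0.17, NTH1 from -0.12 to 0.050, NTH2 from -0.12 to 0.027 and ATH1 from -0.085 to 0.24. Within lsm1-ideg TSL1 ran from -0.051 to 0.16 and ATH1 from -0.060 to 0.15. In lsm1-ideg T0 against wt T0, TPS3 ran from -0.056 to 0.14 and TSL1 from -0.11 to 0.24. Within wt, TPS2 ran from -0.21 to 0.012, TPS3 from -0.16 to 0.039, TSL1 from -0.086 to 0.27, NTH2 from -0.10 to 0.00086 and ATH1 from -0.21 to 0.12.

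Over all features, the count called beyond wt in dcp2-ideg was 4048, against 2220 with protein-coding features alone. Against lsm1-ideg it was 3361 and 1776, and within dcp2-ideg 6102, 3202 and, at 10 CPM, 3965. In lsm1-ideg beyond wt it was 25, against 94 with DESeq2, 39 with protein-coding features, 57 and 150 with the replicate block over all strains and within strain, 55 with only its groups and 92 with 3 libraries set aside, and 16 to 24 leaving out 1 library. Within lsm1-ideg it was 218, against 424 with DESeq2, 1034 with only its groups, 797 with the block within strain, 939 with 3 libraries set aside and 101 to 162 leaving out 1. In dcp2-ideg T0 against wt T0 it was 97, against 152 with DESeq2, 59 with protein-coding features, 25 with only its groups and 63 to 94 leaving out 1. In lsm1-ideg T0 against wt T0 it was 41, against 80 with DESeq2 and 126 with 3 libraries set aside. With total counts the calls against lsm1-ideg were 3726 higher and 370 lower, against 1793 and 1568 with TMM, within dcp2-ideg 6316 and 803, against 3286 and 2816, and within lsm1-ideg 208 and 39, against 132 and 86. With protein-coding features alone, lsm1-ideg T0 against wt T0 gave 22 higher and 8 lower, against 23 and 18. The planned promoter table was not used here, and a window of 250 bases before to 50 after the start codon in R64 took its place.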
